A study of Mus musculus with 8 samples.

Results

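Transforming growth factor-β (TGF-β) and bone morphogenetic protein (BMP) signaling was examined in yolk sacs in which Notch activity had been raised or removed. The gene set held 38 genes of the 18194 genes that could be named on the array: 10 ligands, 11 receptors and co-receptors, 7 Smads, 6 antagonists and 4 target genes. They were chosen by name from knowledge of the pathway, with earlier results of these data already known. Signals from 8 arrays, each hybridised with total RNA of whole yolk sac at embryonic day 9.5, were compared within each of the 2 models.

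The gain-of-function model, EC-N1ICD, carried Tie2 Tg/0 together with ROSA +/N1ICD on a C57BL6 background, so that the active intracellular domain of Notch1 was expressed from the ROSA locus after Cre recombination. Its wild type was Tie2 0/0; ROSA +/+ and had neither allele. The loss-of-function model, EC-Rbpj-KO, was Tie2-Cre; Rbpj flox/flox on a mixed background and lost the DNA-binding partner of Notch in recombined cells. No genotype is labelled for its wild type, which came from crosses of a Tie2 Tg/0; Rbpj +/flox male with a Rbpj +/flox female. Each group had 2 arrays. The labels do not state how many embryos an array holds, so the p-values rest on array-to-array spread, which may be technical. In EC-Rbpj-KO the 2 arrays differ in embryo sex (below), so that the spread there is not technical alone. The 2 EC-N1ICD arrays differ in red cell genes (below). Tie2-Cre acts in endothelial and hematopoietic cells, whereas the RNA also came from visceral endoderm, mesothelium and mesenchyme. In such bulk RNA, fewer cells of a type and less RNA per cell cannot be told apart.

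TGF-β family ligands are secreted dimers that bring type II and type I receptor kinases together at the cell surface. The type I receptor then phosphorylates the receptor-regulated Smads, which join Smad4 and enter the nucleus. Smad2 and Smad3 relay TGF-β and activin signals, Smad1 and Smad5 relay BMP signals, and Smad6 and Smad7 are feedback inhibitors. Mouse embryos that lack Tgfb1, Tgfbr2, Eng, Acvrl1 or Smad5 are known for failures of the yolk sac vessels.

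Log2 signals of the 2 arrays of a group correlated at 0.986 to 0.990. EC-N1ICD replicate 1 nevertheless stood apart in red cell genes, with Alas2 at 409 and Slc4a1 at 449 against 1694 and 2559 on replicate 2, and without it the calls over all genes in EC-N1ICD went from 65 to 7. As a measure of RNA integrity, signal near the 3′ end of Actb over that near its 5′ end was 1.72 and 1.75 in EC-N1ICD against 2.10 and 2.34 in its wild type, and for Gapdh it ran from 2.43 to 4.64, the highest on EC-Rbpj-KO replicate 1. The part of these differences in the values below was not tested. Rbpj read 470 and 497 in EC-Rbpj-KO yolk sacs against 984 and 919 in its wild type, a log2 fold change of -0.98 (adjusted p = 0.00866). The Notch target Hey1 read 66 and 69 there against 72 and 70 (log2 fold change -0.07, limma adjusted p = 0.906), and Nrarp was called as higher. In EC-N1ICD both Hey1 (log2 fold change 1.33, limma adjusted p = 0.0364) and Nrarp were called as higher. The visceral endoderm markers summed to between 149488 and 174152 on every array. In EC-Rbpj-KO the sums were 150678 to 160218 against 160936 to 174152 in its wild type, without overlap. Of these markers Cubn was called there, as lower (log2 fold change -0.34, limma adjusted p = 0.0324). The endothelial marker Pecam1 was below the median signal on all 8 arrays whereas Kdr and Cdh5 were above it. Xist read 3600 and 3730 on the EC-N1ICD arrays, 2005 on EC-Rbpj-KO replicate 1 and 77 to 96 on the other arrays. Embryo sex and genotype therefore cannot be told apart in the EC-N1ICD comparison alone, and values with sex as a term of the fit are given beside members whose call it changed. The one group with both sexes is EC-Rbpj-KO, so there that term leaves replicate 2 alone to set against the wild type.

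Of the 38 genes, 31 had a mean signal above the filter of 67.9, the 40th percentile of all named genes, and entered the test. Tgfb3, Inhba, Inhbb, Acvrl1, Fst, Nog and Grem1 lay below it. At an adjusted p under 0.05, 3 members were called in EC-Rbpj-KO. Skil and Acvr1 fell and Tgfbi rose. That was 3 of 31 members, where 4.96% of the 10913 genes tested were called in this comparison. The values below are array signals in linear units, a log2 fold change is mutant over wild type, and an adjusted p comes from limma with Benjamini-Hochberg adjustment over all tested genes. With limma 0 members were called in EC-N1ICD, where 0.596% of all genes were called. The t-test of the study's methods also left 0 there after adjustment, with 3 at an unadjusted p under 0.05. Before adjustment in limma, 5 members had a p under 0.05 in EC-N1ICD against 12.0% of all genes. In EC-Rbpj-KO 7 members had one, against 19.9%. The median log2 fold change over the 31 members was 0.11 in the gain-of-function model and -0.09 in the loss-of-function model, beside 0.01 and -0.02 over all genes.

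**Figure D1:**
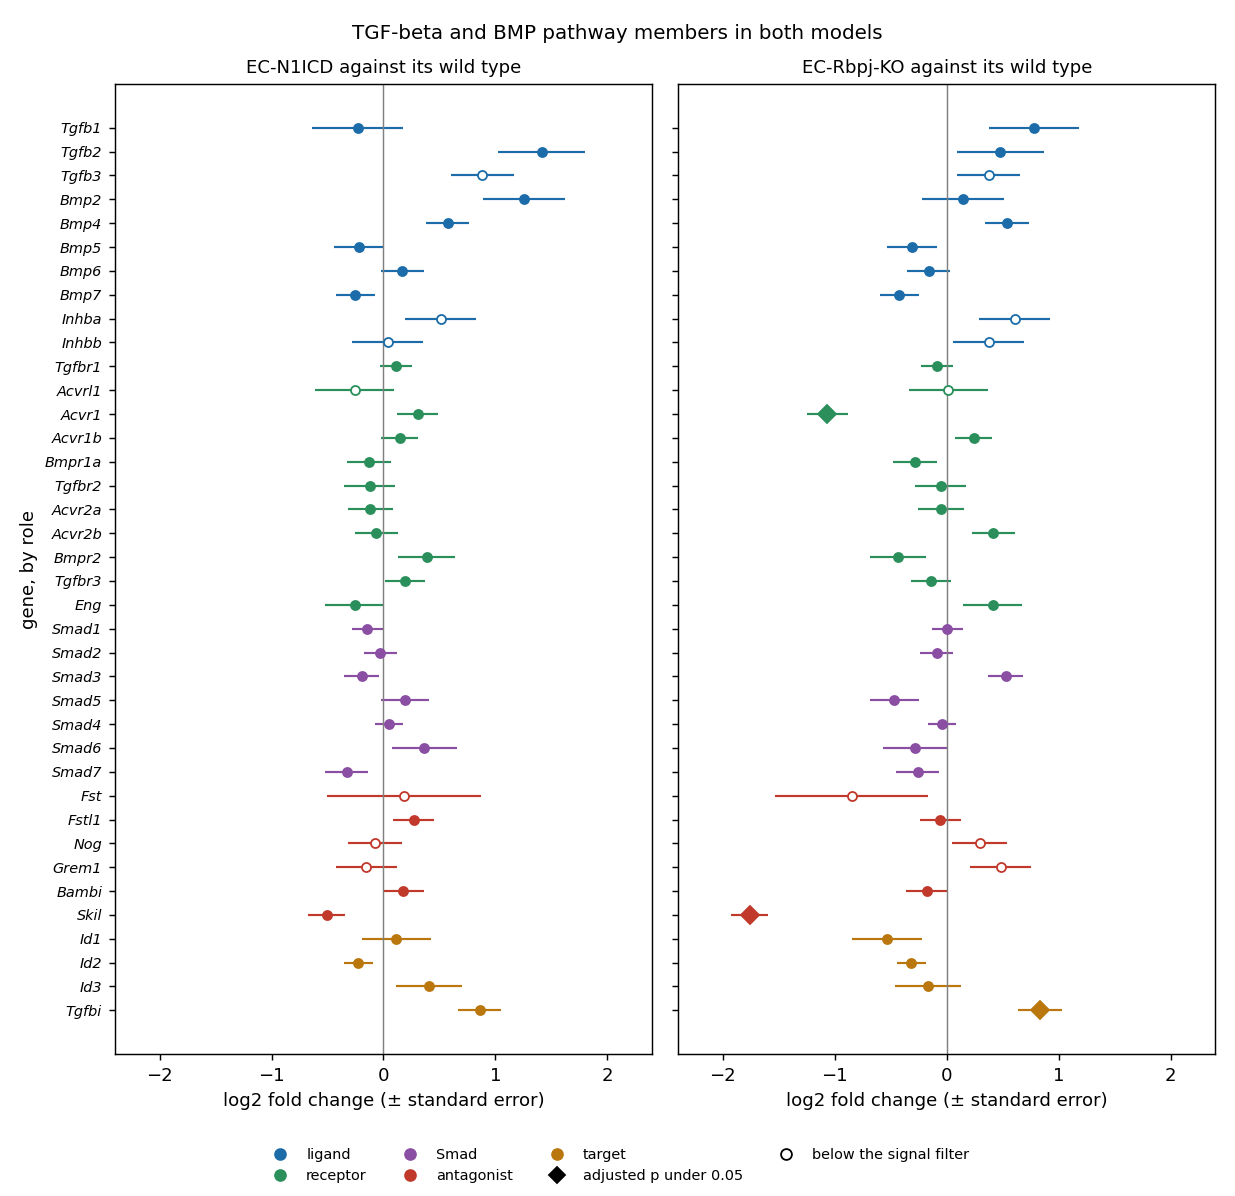
Log2 fold change (x axis, point) with its standard error (bar) of each of the 38 genes (y axis, ordered by role) in EC-N1ICD (left) and EC-Rbpj-KO (right), each against its own wild type, from 2 arrays a group. Diamonds mark an adjusted p under 0.05 and open circles mark genes below the signal filter. Most genes lie within 0.5 of 0, Tgfb2 and Bmp2 lie farthest to the right in EC-N1ICD, and Skil at -1.76 and Acvr1 at -1.07 lie farthest to the left in EC-Rbpj-KO.

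Among the ligands, Tgfb2 and Bmp2 had the highest ratios in EC-N1ICD, although neither passed the test. Tgfb2, a TGF-β isoform needed for heart and vessel development, read 201 and 227 in EC-N1ICD against 65 and 99 in its wild type. Both mutant arrays lay above both controls, and the ratio was 2.66-fold (log2 fold change 1.41 ± 0.39, SE, adjusted p = 0.159). In the EC-Rbpj-KO set Tgfb2 read 70 and 112 in the mutant and 96 and 42 in the wild type, which overlapped (log2 fold change 0.48, adjusted p = 0.538). Bmp2, a BMP ligand of the early heart and extraembryonic mesoderm, read 214 and 266 in EC-N1ICD against 154 and 65 in its wild type (2.38-fold; log2 fold change 1.25 ± 0.37, SE, adjusted p = 0.177). The mutant arrays again lay above both controls, which differed from each other by more than they did. Bmp2 read 74 and 91 in EC-Rbpj-KO yolk sacs against 63 and 87 in its wild type, which overlapped (log2 fold change 0.15, adjusted p = 0.862). Both genes had been picked out in the study on these same arrays, so their direction here is not independent evidence. The study also measured Tgfb2 by RT-PCR, with a rise in EC-N1ICD yolk sac and a fall in EC-Rbpj-KO. By real-time PCR it rose in sorted EC-N1ICD endothelial cells too, which were made with Flk1-Cre in place of the Tie2-Cre of these arrays. For the RT-PCR yolk sacs the study names either Cre line. The fall in EC-Rbpj-KO was not seen in the array values above.

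Tgfb2 was measured by 4 probe sets. The brightest is the one given above, and the second read 220 and 205 in EC-N1ICD against 61 and 64 in its wild type, a log2 fold change of 1.77 with an adjusted p of 0.0567 when every probe set was tested on its own. Another, below the filter, gave 1.29, and the last was below the median signal on every array and gave 0.15. Tgfb2 passed the threshold when the 4 arrays of the EC-N1ICD set were fitted alone (adjusted p = 0.0351), with the log2 fold change unchanged. With embryo sex in the fit the log2 fold change was 2.09 for Tgfb2 (adjusted p = 0.254) and 1.55 for Bmp2 (adjusted p = 0.351).

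Because Tgfb2 was the ligand with the highest ratio, the 250 bases before its start are shown, as RefSeq gives them in GRCm38.p6 at chr1:186705990-186706239, on the minus strand and written 5′ to 3′ along the gene. Capitals mark CAGAC, the core of the Smad-binding element, on either strand. The window holds 2 of them and no GTGGGAA, the core letters bound by RBPJ. The study reported RBPJ sites upstream of Tgfb2 that lie farther from the start than this window reaches.
Tgfb2: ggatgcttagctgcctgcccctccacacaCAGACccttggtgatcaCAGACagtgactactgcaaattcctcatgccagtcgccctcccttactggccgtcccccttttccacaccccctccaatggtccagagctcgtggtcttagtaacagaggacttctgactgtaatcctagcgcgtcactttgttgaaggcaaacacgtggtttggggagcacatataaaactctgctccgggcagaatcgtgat

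The other ligands moved less in EC-N1ICD. Tgfb3, an isoform known for palate and lung development, read 52 and 69 against 32 and 33, without overlap (1.84-fold), but its mean lay below the filter. With no filter its adjusted p was 0.265. Bmp4, a ligand that induces mesoderm and blood, read 854 and 781 in EC-N1ICD against 634 and 476 in its wild type (log2 fold change 0.57 ± 0.19, SE, adjusted p = 0.241, and 0.36 with embryo sex in the fit). In EC-Rbpj-KO it read 592 and 510 against 421 and 339, also without overlap (log2 fold change 0.54 ± 0.19, SE, adjusted p = 0.147). The Bmp4 ratio was thus 1.49-fold in the one model and 1.45-fold in the other. Tgfb1, Bmp5, Bmp6, Bmp7, Inhba and Inhbb lay between -0.25 and 0.51 on the log2 scale in EC-N1ICD. A further rule asked for a ratio of 1.5 or more and no overlap between mutant and wild type arrays. By it, 3 tested members were higher in EC-N1ICD (Tgfb2, Bmp2 and Tgfbi) against 3.52% of all genes, and 0 were lower against 2.63%.

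In EC-Rbpj-KO no ligand passed the test on its brightest probe set. Tgfb1, the isoform best known from yolk sac vessel formation, read 96 and 118 in the mutant and 50 and 77 in the wild type (1.72-fold, without overlap; adjusted p = 0.313), and it was below the median signal on 2 of the 8 arrays. Inhba, the subunit of activin A, read 63 and 46 against 29 and 43 (1.52-fold, without overlap), below the filter. With no filter its adjusted p was 0.408. Neither difference passed the test, at signals close to the filter.

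Bmp7, a BMP ligand made by many epithelia, gave different answers from its probe sets, and it is named after these values were seen. Its brightest probe set read 386 and 322 in EC-Rbpj-KO yolk sacs against 464 and 482 in the wild type (log2 fold change -0.42, adjusted p = 0.203). A second probe set read 165 and 220 against 468 and 507, a log2 fold change of -1.35 with an adjusted p of 0.00722 when each probe set was tested on its own. The dimmest, below the filter, read 32 and 52 against 84 and 108, a log2 fold change of -1.22. All 3 placed both mutant arrays below both wild type arrays and differed in how far. In EC-N1ICD the same probe sets gave -0.25, -0.20 and 0.16, none of them past the threshold.

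**Figure D2:**
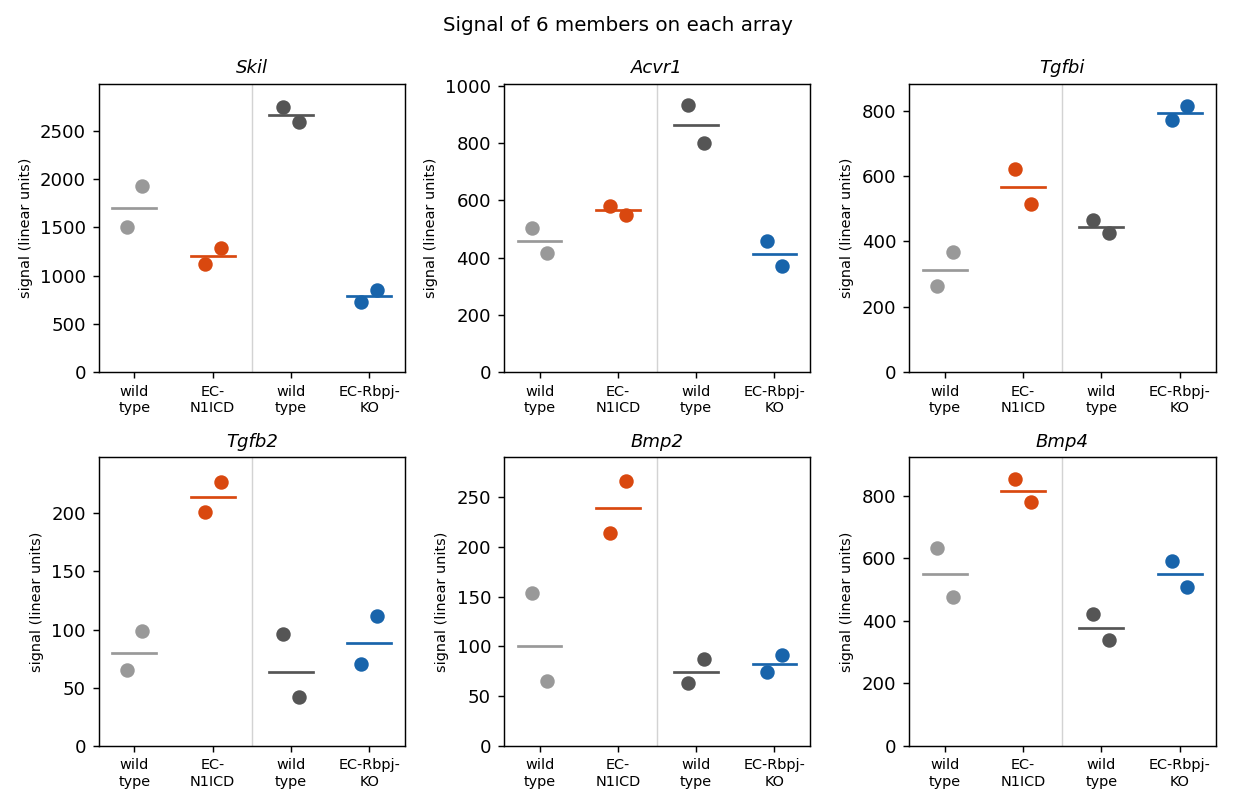
Signal on each array (points, linear units; y axes start at 0) with the geometric mean of each group's 2 arrays (line) for Skil, Acvr1, Tgfbi, Tgfb2, Bmp2 and Bmp4. Skil falls from 2748 and 2595 in the wild type to 729 and 855 in EC-Rbpj-KO, and Tgfb2 and Bmp2 stand above their wild type in EC-N1ICD, at adjusted p-values of 0.159 and 0.177.

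Of the receptors, Acvr1 was the one that changed. Acvr1, the type I receptor also called ALK2 that relays BMP signals to Smad1 and Smad5, read 458 and 370 in EC-Rbpj-KO yolk sacs against 932 and 800 in its wild type, and so fell to 0.477 times the wild type level (log2 fold change -1.07 ± 0.18, SE, adjusted p = 0.00815). In EC-N1ICD it read 582 and 550 against 505 and 416 (log2 fold change 0.30, adjusted p = 0.575). The difference between the 2 models was 1.37 on the log2 scale, with an adjusted p of 0.0624, and it passed without EC-Rbpj-KO replicate 1 (1.53, adjusted p = 0.0407). Its other probe sets were below the filter and gave log2 fold changes of -0.73 and 0.55 in EC-Rbpj-KO, and the call ended when all probe sets of the gene were averaged (log2 fold change -0.42, adjusted p = 0.279) and when replicate 1 of its wild type was left out (-0.96, adjusted p = 0.0791).

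The 250 bases before the start of Acvr1, the one receptor called, lie in GRCm38.p6 at chr2:58566829-58567078 on the minus strand. They hold no CAGAC on either strand, hence no capitals, and no GTGGGAA, and 85.6% of the bases are G or C.
Acvr1: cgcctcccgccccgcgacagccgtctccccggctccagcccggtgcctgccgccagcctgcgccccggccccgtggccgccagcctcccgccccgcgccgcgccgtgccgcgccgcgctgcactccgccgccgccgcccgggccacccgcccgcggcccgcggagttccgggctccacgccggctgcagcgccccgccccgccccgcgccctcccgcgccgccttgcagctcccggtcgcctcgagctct

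The other 9 tested receptors passed in neither model, although Bmpr2 passed in EC-Rbpj-KO under 3 alternative settings. In EC-N1ICD the 10 tested receptors ran from -0.26 for Eng to 0.39 for Bmpr2 on the log2 scale, with a median of 0.02. In EC-Rbpj-KO they ran from -1.07 for Acvr1 to 0.42 for Acvr2b, with a median of -0.07. These are values of the brightest probe sets. A second Acvr2b probe set read 299 and 201 in EC-Rbpj-KO against 104 and 157, without overlap. Its log2 fold change was 0.94 (adjusted p = 0.0849 with each probe set tested on its own). For Bmpr1a in EC-N1ICD the brightest gave -0.13, and the others above the filter gave 0.32, 0.53 and 0.59, none past the threshold. Tgfbr1 and Tgfbr2, the type I and type II receptors of TGF-β, had log2 fold changes of 0.11 and -0.12 in the gain-of-function model and of -0.09 and -0.05 in the other. Eng, the co-receptor endoglin of endothelium, read 266 and 212 in EC-Rbpj-KO yolk sacs against 196 and 163 in its wild type (log2 fold change 0.41, adjusted p = 0.413). Bmpr2, the type II BMP receptor, read 1112 and 556 in EC-Rbpj-KO yolk sacs against 1079 and 1050, so 1 array alone lay low (log2 fold change -0.44, adjusted p = 0.366). It was called as lower where that array alone stood for the mutant, with embryo sex in the fit (-0.94, adjusted p = 0.0135) and without replicate 1 (-0.94, adjusted p = 0.0124). Without replicate 2 the value was 0.06, and a second, dimmer probe set gave 0.04. Acvrl1, the type I receptor ALK1 of endothelium, read 32 to 62 over the 8 arrays and was below the median signal on 5 of them.

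No Smad passed the test in either model. Over the 7 Smads the log2 fold change ran from -0.33 for Smad7 to 0.37 for Smad6 in EC-N1ICD, with a median of -0.03. It ran from -0.47 for Smad5 to 0.53 for Smad3 in EC-Rbpj-KO, with a median of -0.09. Smad3 came closest to the threshold: it read 1058 and 1067 in EC-Rbpj-KO yolk sacs against 799 and 682 in the wild type, without overlap (1.44-fold; adjusted p = 0.0842). In EC-N1ICD it read 473 and 497 against 564 and 545, also without overlap and in the other direction (log2 fold change -0.19, adjusted p = 0.720). The difference between the models for Smad3 had an unadjusted p of 0.00778 and an adjusted p of 0.272. Smad4, the common partner of the others, differed from its wild type by 0.05 and -0.04 on the log2 scale in EC-N1ICD and EC-Rbpj-KO respectively. For Smad1 these values were -0.15 and 0.00. All of these come from the brightest probe sets. A dimmer Smad4 probe set read 1750 and 1550 in EC-N1ICD against 1154 and 1021, 1.52-fold and without overlap. Its log2 fold change was 0.60 (adjusted p = 0.141 with each probe set tested on its own). The remaining Smad4 probe set gave 0.20 there, and both gave -0.04 in EC-Rbpj-KO.

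Skil showed the largest change among the members called. It encodes SnoN, a nuclear co-repressor that binds Smads and silences their target genes, and it is itself known as a gene that TGF-β induces. Skil read 729 and 855 in EC-Rbpj-KO yolk sacs against 2748 and 2595 in its wild type, and so fell to 0.296 times the wild type level (log2 fold change -1.76 ± 0.17, SE, adjusted p = 0.000405). In EC-N1ICD it read 1121 and 1288 against 1509 and 1929. These did not overlap either, and the mutant was again the lower, at 0.704 times the wild type level (log2 fold change -0.51 ± 0.17, SE, adjusted p = 0.221). The difference between the models was 1.25 on the log2 scale (adjusted p = 0.0624), and it was called with embryo sex in the fit (1.37, adjusted p = 0.0444) and without EC-Rbpj-KO replicate 2 (1.37, adjusted p = 0.0397). A second probe set of Skil, below the median signal on 7 of 8 arrays, gave -0.25 in EC-Rbpj-KO.

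Skil and Acvr1 were the 2 tested members at least 1.5-fold lower in EC-Rbpj-KO without overlap, where 5.83% of all genes were, and Tgfbi and Tgfb1 were the 2 that were higher, where 5.11% were. Of the other antagonists, Bambi, a pseudoreceptor without a kinase, and Fstl1, a secreted follistatin-like protein, had log2 fold changes of 0.18 and 0.27 with Notch activated and of -0.18 and -0.06 with Rbpj lost, none past the threshold. Fst, encoding the activin-binding protein follistatin, read 177 and 34 in EC-N1ICD and 123 and 38 in its wild type, a wide spread within each group. In EC-Rbpj-KO it read 11 and 21 against 25 and 30, without overlap, at signals below the filter (0.555 times; adjusted p = 0.628 with no filter). The BMP antagonists Nog and Grem1 were below the median signal on all 8 arrays.

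Among the 4 target genes, Tgfbi was higher in both models. Tgfbi encodes an extracellular matrix protein whose transcription is induced by TGF-β. It read 773 and 814 in EC-Rbpj-KO yolk sacs against 466 and 426 in its wild type, and rose 1.78-fold (log2 fold change 0.83 ± 0.20, SE, adjusted p = 0.0336). In EC-N1ICD it read 623 and 516 against 265 and 369, 1.81-fold and without overlap (log2 fold change 0.86 ± 0.20, SE, adjusted p = 0.0837). The difference between the models was 0.03 (adjusted p = 0.980). Its 4 probe sets gave log2 fold changes of 0.86, 0.91, 0.70 and 1.03 in EC-N1ICD. In EC-Rbpj-KO they gave 0.83, 0.62, 0.58 and 0.68, all in one direction. The call in EC-Rbpj-KO lay close to the threshold and ended under 12 of 19 alternative settings, with adjusted p-values between 0.0246 and 0.362 over all of them. Leaving out either array of EC-Rbpj-KO or of its wild type ended it, with log2 fold changes of 0.77 to 0.90, as did embryo sex in the fit (0.87, adjusted p = 0.0604).

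Id1, Id2 and Id3, inhibitors of basic helix-loop-helix factors and direct targets of BMP signals through Smad1 and Smad5, did not pass. Their log2 fold changes were 0.12, -0.23 and 0.41 in EC-N1ICD. In EC-Rbpj-KO all 3 were negative, at -0.54, -0.32 and -0.17. A second, dimmer Id2 probe set read 794 and 647 in EC-N1ICD against 586 and 409, without overlap. Its log2 fold change of 0.55 there was opposite in sign to that of the brightest, and it gave -0.39 in EC-Rbpj-KO, neither past the threshold. Id2 read 4890 and 3897 in EC-Rbpj-KO yolk sacs against 5599 and 5284 in its wild type, without overlap (adjusted p = 0.195). Id1 read 627 and 319 against 563 and 746, which overlapped (adjusted p = 0.367).

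The window before Tgfbi, the target gene called, lies in GRCm38.p6 at chr13:56609336-56609585 on the plus strand. It holds CAGAC on the opposite strand at 2 places, where it reads GTCTG in capitals, and no GTGGGAA.
Tgfbi: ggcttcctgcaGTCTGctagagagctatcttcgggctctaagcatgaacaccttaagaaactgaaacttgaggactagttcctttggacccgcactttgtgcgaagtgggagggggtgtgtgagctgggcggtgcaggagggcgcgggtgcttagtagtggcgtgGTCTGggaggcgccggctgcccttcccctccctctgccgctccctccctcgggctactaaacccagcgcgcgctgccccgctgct

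Macrophage markers were examined beside Tgfbi. Of 10 such markers on the array 7 were tested, and in EC-Rbpj-KO 5 of them rose (Csf1r, Cx3cr1, Adgre1, Ly86 and Tyrobp) and Cd68 fell. In EC-N1ICD 1 of the 7, Ly86, rose. Cd68 read 161 and 167 there against 221 and 183, and 108 and 164 in the loss-of-function model against 255 and 255. The summed signal of the list was 2928 to 3682 in EC-Rbpj-KO against 1112 to 1596 in its wild type, and 1764 to 2286 in EC-N1ICD against 1191 to 1230. Aif1 was below the median signal on every array. Macrophages are known to make Tgfbi, and the part of these cells in its signal was not tested. The median log2 fold change of the 8 tested endothelial markers was 0.01 in EC-N1ICD. It was 0.40 in EC-Rbpj-KO, where Cldn5 rose. There 7 of the 8 had the higher value and Tek the lower. Tek read 187 and 181 against 276 and 336, without overlap (log2 fold change -0.73, adjusted p = 0.103). For the 8 tested primitive erythroid markers the median was -1.21 with Notch activated and -0.47 with Rbpj lost, with none called. All 8 were lower in EC-N1ICD at an unadjusted limma p under 0.05. Over all genes 12.0% had such a p there, in either direction. All 7 tested megakaryocyte and platelet markers also had the lower value in EC-N1ICD, and Pf4 was called (log2 fold change -2.00, adjusted p = 0.0216). The median of these 7 was -0.67 there and 0.10 in EC-Rbpj-KO, where none was called.

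**Figure D3:**
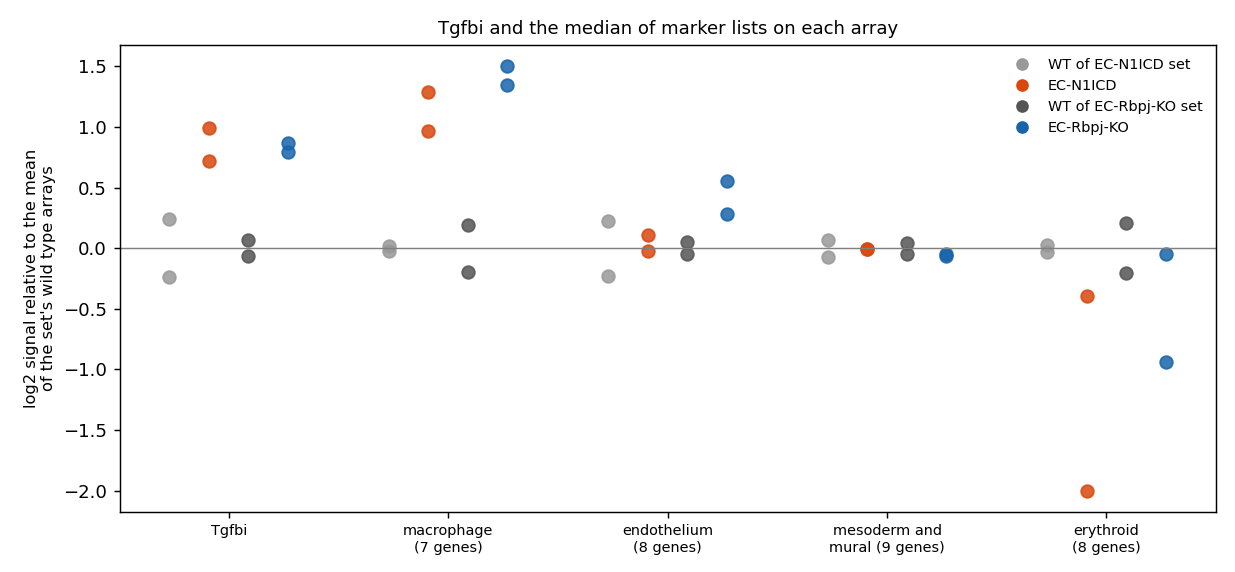
Log2 signal of Tgfbi, and the median over the tested genes of 4 marker lists, on each array, less the mean log2 signal of the 2 controls of its set (y axis; points are arrays, colored by group). Tgfbi and the macrophage list stand above 0.7 on all 4 mutant arrays, and the erythroid list reaches -2.00 on EC-N1ICD replicate 1. The median of the mesoderm and mural list stays within 0.1 of 0, and in EC-N1ICD it covers genes with higher and with lower values.

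Many members had several probe sets: 28 of the 38, with 86 probe sets in all. Each of the 17839 probe sets above the filter was also tested on its own, 54 of them from members. In EC-Rbpj-KO 4 of the 54 (7.41%) were called, against 4.15% of all probe sets. They belonged to Acvr1, Bmp7, Skil and Tgfbi. In EC-N1ICD 0 of the 54 were called, against 0.370% of all probe sets.

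**Figure D4:**
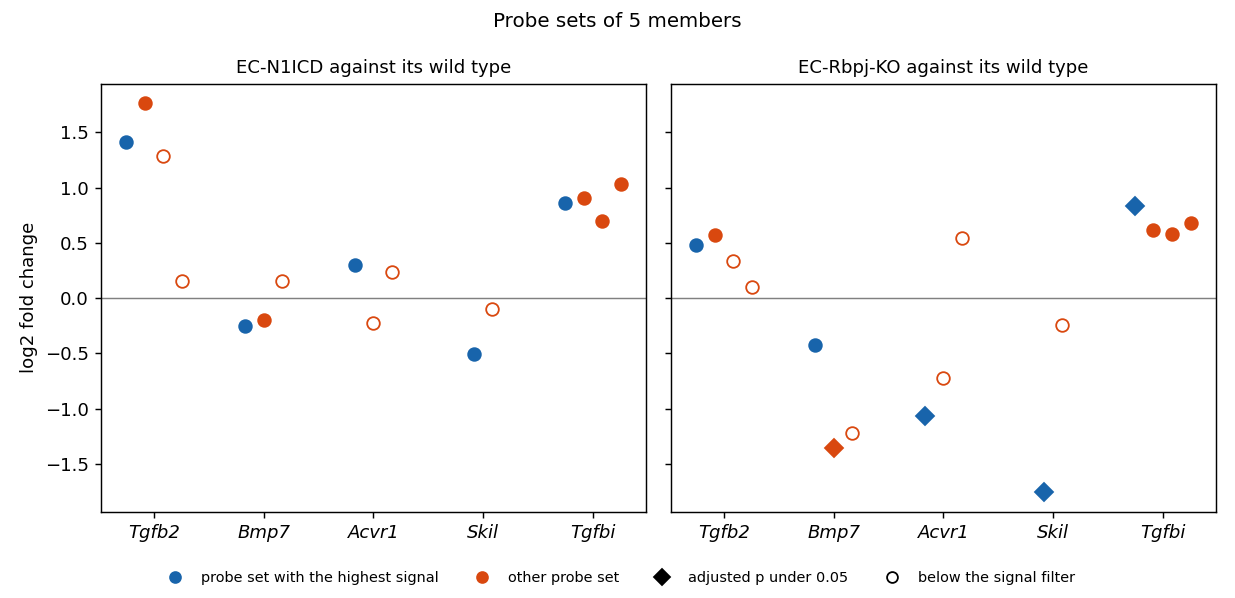
Log2 fold change (y axis) of each probe set of Tgfb2, Bmp7, Acvr1, Skil and Tgfbi in EC-N1ICD (left) and EC-Rbpj-KO (right). Blue is the brightest probe set of the gene, orange the others, diamonds an adjusted p under 0.05 with every probe set tested on its own, open circles probe sets below the filter. The 4 Tgfbi probe sets lie together above 0 in both models, whereas those of Bmp7 spread from -0.42 to -1.35 in EC-Rbpj-KO.

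Further genes of the pathway came from lists of 93 other ligands, receptors, Smad regulators, antagonists and targets, of which 84 were on the array and 43 were tested. In EC-Rbpj-KO 1 of them rose and 2 fell, which is near the 4.96% of all genes called there. Tgif1, encoding a homeodomain co-repressor that binds Smads, read 48 and 50 against 140 and 139 and fell to 0.351 times the wild type level (log2 fold change -1.51, adjusted p = 0.0078). Its EC-N1ICD values of 84 and 95 overlapped the wild type's 81 and 105. Ski, the relative of Skil, read 1273 and 863 against 918 and 972 (log2 fold change 0.15) and Tgif2 differed by -0.03, neither past the threshold. Inha, the inhibin α subunit, rose from 75 and 50 to 150 and 147 (2.42-fold; adjusted p = 0.0328). Junb, an immediate early gene induced by TGF-β, fell from 123 and 134 to 32 and 64 (log2 fold change -1.50, adjusted p = 0.0499). The calls of Inha and Junb ended under 10 and 13 of 18 alternative settings and that of Tgif1 under 3, among them leaving out either wild type array (adjusted p = 0.0563 and 0.0637).

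In EC-N1ICD 1 of the 43 genes rose and none fell, where 0.596% of all genes were called. Tagln, a smooth muscle cytoskeletal gene that TGF-β induces, read 2728 and 2454 against 783 and 981 (log2 fold change 1.56, adjusted p = 0.00275), and its call ended with embryo sex in the fit (1.29, adjusted p = 0.123) and without EC-N1ICD replicate 1 (1.49, adjusted p = 0.0676). Of the 17 other target genes tested, 13 had the higher value in EC-N1ICD, as did 52.3% of all genes. An unadjusted p under 0.05 with the higher value was found for 7, against 6.52% of all genes: Ccn2, Id4, Tsc22d1, Tagln, Acta2, Snai2 and Tbx20. The median of these 17 was 0.33 with Notch activated and -0.01 with Rbpj lost. Ccn2, Id4 and Tagln had been picked out by the study on these arrays, and Tagln, Acta2 and Tbx20 are also on the mesoderm and mural list. Of the 9 tested genes of that list, 4 had the higher value in EC-N1ICD, namely Tagln, Acta2, Tbx20 and Pdgfrb. Each did so without overlap and at an unadjusted limma p under 0.05, with Pdgfrb at 873 and 847 against 585 and 386. The other genes of the list had the lower value, Col1a1 at an unadjusted p under 0.05, and the median log2 fold change was -0.03. The list's summed signal was 32001 to 33262 in EC-N1ICD against 24505 to 25443. That sum is carried largely by Acta2, at 14640 and 13687 against 7480 and 8684. Of the 14 other Smad regulators tested, 4 were lower in EC-Rbpj-KO at an unadjusted p under 0.05, against 11.6% of all genes: Tgif1, Nedd4l, Map3k7 and Strap.

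The 2 models were then set against each other, each relative to its own wild type. No member differed between them at an adjusted p under 0.05, where 0.266% of all genes did. Skil, Acvr1, Smad3 and Bmpr2 had an unadjusted p under 0.05, which makes 4 of 31 members against 10.8% of all genes. By direction alone, 12 of the 31 members (38.7%) were above the wild type in EC-N1ICD and below it in EC-Rbpj-KO, where 23.1% of all genes were, and 5 (16.1%) the other way round, where 17.4% were. A further 5 were higher in both models and 9 were lower in both. Most of these values did not pass the test in either model, and the shares were not tested.

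The 2 sets of arrays differed from each other whatever the genotype, in members as in genes at large. Of the 31 members, 9 (29%) had all 4 arrays of the EC-Rbpj-KO set above all 4 of the EC-N1ICD set, against 27.7% of all genes. The reverse held for 6 (19.4%), against 11.3%, and neither share was tested. Acvr2b, Smad1, Smad4, Tgfbr2, Smad3, Acvr1b, Smad2, Tgfbr1 and Smad7 made up the first group. Smad1 was at 1007 to 1173 in the EC-N1ICD set and 2231 to 2442 in the EC-Rbpj-KO set. Bambi, Bmpr2, Bmp5, Tgfbr3, Id1 and Id3 made up the second. Strain, cross and the date in the sample titles all differ between the sets and cannot be told apart, and so each mutant was read against its own control alone.

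The promoter windows were searched for both motifs in all members. RefSeq windows were found for 25 of the 38 members. CAGAC occurred on either strand in those of 12, among them Id3, Tgfbr1, Tgfbr2, Eng and Smad5, and in 42.2% of the 32851 windows of all genes. GTGGGAA occurred in those of Bmpr2 and Smad5, and in 5.42% of all windows. Skil, Bmp2 and Bmp7 were not among the 25.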

How the data were processed

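Per the labels, biotin-labelled yolk sac RNA was hybridised to Affymetrix arrays and summarised with MAS5, whose version and scaling are not given in the sources used here. The authors deposited one linear signal intensity per probe set and array, in whole numbers from 7 to 36554; array medians were 38 to 51, and the number of arrays limits the precision. Of 45101 probe sets, 34958 named 1 gene, 932 several and 9211 none. The single-gene probe set with the highest mean stood for a gene, genes above the 40th percentile of mean signal were tested, and log2 intensity was fitted with limma 3.58.1 in R 4.3.3. The 4 groups shared 1 fit (lmFit, eBayes with trend, 4 residual degrees of freedom and 7.37 from the prior) with Benjamini-Hochberg adjustment over all tested genes. The code was tested on simulated data.

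Members and lists were chosen with earlier results of these data known. Members were described in detail where they passed the test in a comparison, where they were at least 1.5-fold apart without overlap, or where the study names them (Tgfb2, Bmp2); other pathway genes where they passed. Bmp4, Bmp7, Smad3 and other members given with values were chosen after their values were seen. Alternatives covered scaling, a constant of 16 added before log2, filters, probe set choice, variance model, embryo sex, each array left out, and the methods' t-test. Testing each probe set on its own, and a block on the number that opens the sample titles, were chosen after seeing the data.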

Additional observations from a re-analysis of the deposited data

How the results depend on the processing

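No paired analysis was possible because replicate numbers were given in accession order and pair nothing. Sample titles also open with a number whose meaning the labels do not give, and replicate 1 of each mutant has one of its own. With that number as a block, chosen after seeing the data, these 2 arrays drop out of the contrasts, and Acvr1, Bmpr2 and Skil were called in EC-Rbpj-KO and 0 members in the other comparisons. The count of members called in EC-N1ICD was 0 under every alternative except the fit of the 4 arrays of its set alone, which called 1 (Tgfb2). In EC-Rbpj-KO the count of 3 became 5 with quantile normalization (Bmp4 and Smad3 added) and 0 by the methods' t-test, which gave 5 members an unadjusted p under 0.05 and called 1 gene of all; leaving out single arrays gave 1 to 3, the lowest without replicate 1 of its wild type, where Skil stayed. With embryo sex in the fit, or without EC-Rbpj-KO replicate 1, the count stayed at 3 but Bmpr2 replaced Tgfbi. For the difference between the models the count of 0 became 1 with embryo sex in the fit (Skil), and leaving out single arrays gave 0 to 2, with Acvr1 and Bmpr2 called without EC-Rbpj-KO replicate 1 and Skil without replicate 2. The sex term rests on the 2 EC-Rbpj-KO arrays, the one group that holds both sexes.

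The fall of Skil in EC-Rbpj-KO was called under 18 of 19 alternatives (log2 fold change -1.87 to -1) and that of Acvr1 under 16 of 19. Bmp4, Smad3 and Bmp7 in EC-Rbpj-KO passed under 1 alternative each, Bmp7 with the mean of its probe sets (-1, adjusted p = 0.0135). Directions turned for some values that were not called. In EC-Rbpj-KO, leaving out single arrays gave Tgfb2 -0.117 to 1.08, Bmp2 -0.0843 to 0.381 and Bmpr2 -0.937 to 0.0631, Bmpr2 was 0.0818 with the mean of its probe sets, and with embryo sex in the fit Acvr1 in EC-N1ICD was -0.00403. With embryo sex in the fit the median of the 4 target genes in EC-N1ICD went from 0.26 to -0.55 and that of the receptors from 0.02 to -0.53.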
